A study of Mus musculus with 35 samples.

Results

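The transcripts of 10 genes of the cerebellar granule neuron lineage, Atoh1, Zic1, Zic2, Pax6, Barhl1, Neurod1, Nhlh1, Cbln1, Cbln3 and Gabra6, were followed in mRNA libraries of CD45+ve microglia. The genes were chosen by name, with earlier results of these data known, as 10 of the 55401 genes in the count table, and all 10 passed the filter on low counts that left 17612 genes for testing. The cells were taken by CD45+ immunopanning from digested whole brain of wild-type C57BL/6 mice, female and male, at postnatal day 6 (P6), postnatal day 15 (P15) and 8 weeks, with meninges removed before digestion and 1 library per mouse. No treatment, transgene or deletion was involved. Results are given for 34 mice (4 females and 6 males at P6, 6 and 6 at P15, 6 and 6 at 8 weeks). P6 female 6 was set aside and its values are given apart. The study removed 1 mouse as an outlier, which its main text does not name. The question was where the neural RNA in these immune cell libraries came from, read through genes that mark 1 neuronal lineage of 1 brain region.

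Granule neurons are the most numerous neurons of the brain. Their progenitors arise from the rhombic lip, where they switch on Atoh1, and divide in the external layer of the cerebellum during early postnatal life. Daughter cells leave the cycle, pass through a stage marked by Neurod1 and Nhlh1, migrate inward and, as they mature and form synapses with Purkinje cells, switch on Cbln3 and the receptor subunit Gabra6. These genes are not used as markers of microglia, and most of them mark the lineage without belonging to it alone. Zic1 and Zic2 are also made by meningeal cells and by some forebrain cells, Pax6 by astrocytes and forebrain progenitors, and Neurod1 by young forebrain neurons. Gabra6 and Cbln3 are among those most restricted to granule neurons.

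The libraries held between 23316107 and 38965078 counts on genes, and a level of 3 counts, the limit that a count of 0 allows (counting error only), corresponded to 0.077 to 0.129 CPM (counts scaled to the library's size). Markers of the labelled cell type were present in every mouse, with P2ry12, a purinergic receptor of microglia, at medians of 827 CPM in P6 mice, 2828 CPM in P15 mice and 3010 CPM in mice of 8 weeks, and Tmem119, a membrane protein of microglia, at 291, 2356 and 2431 CPM. The 10 granule lineage genes together summed to between 83.1 and 1181 CPM at P6 (median 714), between 46.2 and 577 CPM at P15 (median 224) and between 22.7 and 135 CPM at 8 weeks (median 48.2). In libraries of this kind fewer cells of a type and less RNA per cell cannot be told apart. General neuronal markers (Snap25, Syt1, Rbfox3, Tubb3, Stmn2 and Nefl; summed to 276 to 926 CPM in P6 mice, 89.5 to 693 CPM in P15 mice and 48.4 to 212 CPM in mice of 8 weeks) were also present in every library. The tests measure the spread between mice.

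In GRCm38, with GENCODE M21 gene models, Atoh1 lies at chr6:64729125-64731245 in a single exon, Zic1 at chr9:91358058-91365810, Zic2 at chr14:122475435-122479852, Pax6 at chr2:105668900-105697364 and Barhl1 at chr2:28907679-28916668. Neurod1 lies at chr2:79452521-79456751, Nhlh1 at chr1:172052292-172057573, Cbln1 at chr8:87468405-87472609, Cbln3 at chr14:55878913-55884392 and Gabra6 at chr11:42306437-42321072. All are protein-coding. Neurod1 shares 201 exonic bases with Cerkl on the same strand, where strand-specific counting cannot divide the reads. Zic1 shares 60 exonic bases with Zic4 on the opposite strand, which strand-specific counting keeps apart.

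Upstream sequences were available from RefSeq (GRCm38.p6) for 8 of the 10 genes, in 10 windows. The 250 bases before a RefSeq start of Gabra6, Cbln3, Atoh1 and Barhl1 are shown here 5′ to 3′ on the strand of the gene. Gabra6 and Cbln3 were the 2 members that were higher at P15 than at P6. Atoh1 and Barhl1 were 2 of the members that were lower at P15. The RefSeq start of Cbln3 lies inside the gene model given above, so part of its window is within that model. Capitals mark the palindromic E-box CAGCTG, a kind of site that bHLH factors such as Atoh1 and Neurod1 bind. They also mark a related E-box, CAGATG, and the core of the site of the nuclear factor I family, TTGGC. All were searched on both strands, so the reverse complement is in capitals as well.
Gabra6, chr11:42321073-42321322, minus strand: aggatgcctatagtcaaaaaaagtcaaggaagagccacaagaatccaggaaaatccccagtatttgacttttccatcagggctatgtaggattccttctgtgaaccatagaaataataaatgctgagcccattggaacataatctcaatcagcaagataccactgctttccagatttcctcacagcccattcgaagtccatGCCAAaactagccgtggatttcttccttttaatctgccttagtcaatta
Cbln3, chr14:55884257-55884506, minus strand: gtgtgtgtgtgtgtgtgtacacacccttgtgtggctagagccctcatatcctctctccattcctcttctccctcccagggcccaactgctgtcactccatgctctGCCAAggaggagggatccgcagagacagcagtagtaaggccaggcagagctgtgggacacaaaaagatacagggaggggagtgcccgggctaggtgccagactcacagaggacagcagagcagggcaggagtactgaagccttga
Atoh1, chr6:64728875-64729124, plus strand: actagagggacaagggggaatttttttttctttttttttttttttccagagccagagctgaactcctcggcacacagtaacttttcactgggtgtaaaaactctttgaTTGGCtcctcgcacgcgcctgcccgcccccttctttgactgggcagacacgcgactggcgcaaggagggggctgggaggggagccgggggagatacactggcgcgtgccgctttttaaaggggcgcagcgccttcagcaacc
Barhl1, chr2:28916669-28916918, minus strand: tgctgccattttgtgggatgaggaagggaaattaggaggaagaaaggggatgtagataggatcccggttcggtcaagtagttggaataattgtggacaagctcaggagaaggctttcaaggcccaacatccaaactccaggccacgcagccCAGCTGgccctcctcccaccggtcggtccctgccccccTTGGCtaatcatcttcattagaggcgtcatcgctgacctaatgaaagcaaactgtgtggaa
Gabra6, Cbln3 and Atoh1 each held 1 TTGGC match, at -49, -145 and -142 from the RefSeq start. Barhl1 held a CAGCTG at -99 and a TTGGC at -61. Over the members, 6 of 10 windows held TTGGC, 2 held CAGCTG (both of Barhl1) and 1 held CAGATG (Nhlh1). Among 32851 RefSeq windows of the same length, 41.5% held TTGGC, 13% CAGCTG and 14.4% CAGATG. A match here is a match of letters only.

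The progenitor factors had their highest medians at P6 and their lowest at 8 weeks. Zic1, a zinc finger factor of granule progenitors and neurons, lay at 36.7 CPM in the lowest P6 mouse, 284 CPM at the median and 441 CPM in the highest. At P15 the corresponding values were 11.8, 71.8 and 180 CPM, and at 8 weeks 9.80, 20.0 and 43.1 CPM. All 3 ages overlapped their neighbours, with 3 of 12 P15 mice below every P6 mouse and 11 of 12 mice at 8 weeks below every P6 mouse. Zic2, its close relative, ran from 13.9 through 115 to 183 CPM at P6, from 7.33 through 30.5 to 56.8 CPM at P15 and from 7.92 through 11.04 to 24.8 CPM at 8 weeks. Pax6, a paired-box factor needed for granule precursor migration, ran from 12.4 through 73.9 to 143 CPM at P6, from 2.23 through 14.6 to 47.1 CPM at P15 and from 3.25 through 5.49 to 13.01 CPM at 8 weeks. For Zic2 and Pax6 all 12 mice at 8 weeks lay within the range of the P15 mice, and the highest mouse of each age was the same for all of these 3 genes (P6 male 4, P15 female 2 and 8 weeks female 1).

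Atoh1 and Barhl1 were close to or at 0 by 8 weeks. Atoh1, the bHLH factor that defines the progenitors, had between 0 and 285 counts at P6 (0 to 7.41 CPM, median 2.69), between 0 and 28 counts at P15 (0 to 0.839 CPM, median 0.138) and 0 counts in all 12 mice at 8 weeks. Against a limit of 3 counts per library at 8 weeks, its mean was at least 29.2-fold higher at P6 and at least 2.42-fold higher at P15. The P6 mice were split, since males 3 and 4 held 284 and 285 counts, females 1, 2 and 3 held 151, 128 and 145, male 2 held 53, and male 5, female 5, male 1 and male 6 held 13, 8, 3 and 0. Barhl1, a homeobox factor of the same lineage, ran from 1.11 through 52.7 to 116 CPM at P6, from 1.28 through 8.06 to 35.04 CPM at P15 and from 0.0292 through 0.203 to 0.741 CPM at 8 weeks. Every mouse at 8 weeks lay below every mouse at P15 and P6, while all P15 mice lay within the P6 range, whose lowest mouse, P6 male 1, held 38 counts.

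**Figure D1:**
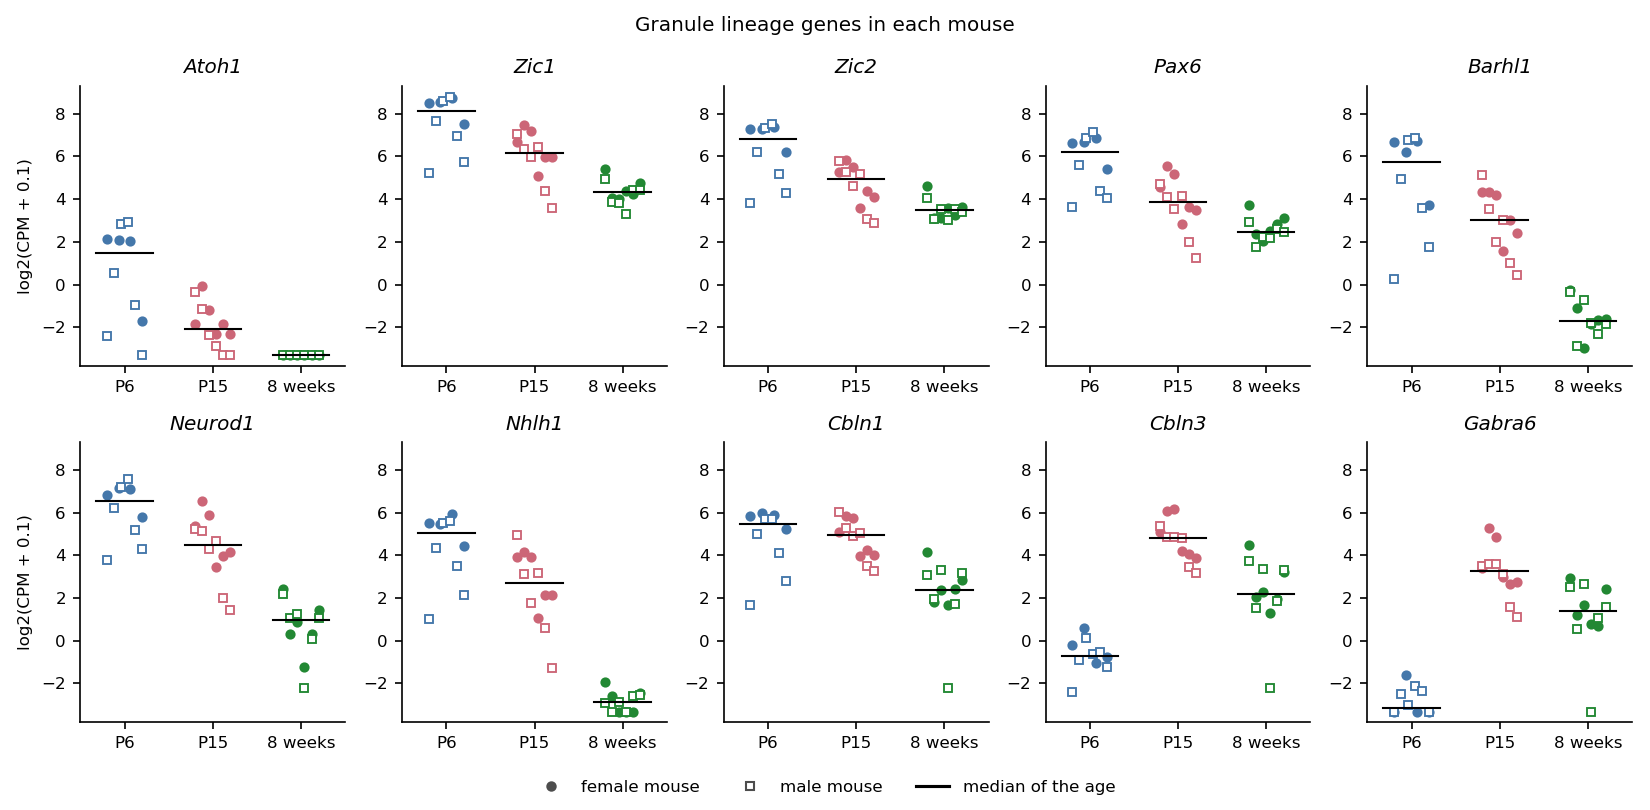
Level of each of the 10 genes in each of 34 mice, on a log2(CPM + 0.1) axis, by age. Filled circles are females, open squares males and the line is the median of the age. Atoh1, Barhl1 and Nhlh1 are near the bottom of the axis at 8 weeks, whereas Gabra6 and Cbln3 are near it at P6 and highest at P15, and P6 male 1, P6 male 6, P15 male 5, P15 male 6 and 8 weeks male 4 give most of the lowest points.

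The differentiation factors were also highest at P6 by the median. Neurod1, the bHLH factor that drives granule neuron differentiation, ran from 13.7 through 94.9 to 191 CPM at P6, from 2.64 through 22.3 to 92.2 CPM at P15 and from 0.113 through 1.85 to 5.35 CPM at 8 weeks. Nhlh1, a bHLH factor of newly born neurons, ran from 1.93 through 33.0 to 60.7 CPM at P6 and from 0.319 through 6.499 to 31.3 CPM at P15. At 8 weeks Nhlh1 had 0 counts in 5 mice and no more than 6 in any. No mouse at 8 weeks reached the lowest P15 mouse for Nhlh1, and 10 of 12 lay below all P15 mice for Neurod1.

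The genes of mature granule neurons had another course. Gabra6, the alpha6 subunit of the GABA-A receptor, was at 0 in 5 of the 10 P6 mice and had 1 to 7 counts in the other 5. At P15 it had between 46 and 1276 counts (2.10 to 38.2 CPM, median 9.55), and at 8 weeks between 0 and 272 counts (0 to 7.47 CPM, median 2.56). Every P15 mouse was above every P6 mouse, as were 11 of 12 mice at 8 weeks, the exception being male 4 with 0 counts. Cbln3, a secreted partner of Cbln1, ran from 0.0879 through 0.518 to 1.42 CPM at P6, from 9.02 through 28.4 to 71.7 CPM at P15 and from 0.113 through 4.41 to 22.6 CPM at 8 weeks, and showed the same separation of P15 from P6. Cbln1, the organiser of the synapse between granule and Purkinje cells, began earlier, at 3.08 CPM in the lowest P6 mouse, 44.4 at the median and 63.2 in the highest. It lay close to that range at P15 (9.52, 31.3 and 66.1 CPM) and was lower at 8 weeks (0.113, 5.18 and 17.8 CPM).

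Between P6 and P15, 4 members fell and 2 rose by more than 2-fold (edgeR glmTreat, FDR under 0.05 over all genes tested), where 4.85% of all genes were called lower and 4.87% higher. The log2FC was -3.60 ± 0.80 (SE; FDR = 0.00897) for Atoh1, -2.36 ± 0.58 (FDR = 0.0332) for Barhl1, -2.08 ± 0.41 (FDR = 0.0153) for Pax6 and -1.82 ± 0.38 (FDR = 0.0482) for Zic2. Genes entered the tests by reaching 0.5 CPM in 5 or more mice of any age. Atoh1 reached it in 2 P15 mice and Gabra6 in 0 P6 mice, so both passed only through the ages where they were high, had to differ, and lend the tally no support. Of the other 8 members 3 were lower and 1 higher. Cbln3 rose by a log2FC of 5.603 ± 0.60 (FDR = 4.34e-08) and Gabra6 by 7.67 ± 0.76 (FDR = 6.25e-09), the latter against P6 counts so low that its size depends on the prior count. It was 9.57 without P6 female 2, the P6 mouse with 7 counts. Zic1 (-1.73 ± 0.38, FDR = 0.0778), Neurod1 (-1.74 ± 0.49, FDR = 0.163) and Nhlh1 (-1.72 ± 0.51, FDR = 0.194) did not pass, and Cbln1 was estimated at -0.25 ± 0.45. Left out 1 at a time, 17 of the 34 mice each took the call from Zic2 (FDR from 0.0501 to 0.122) and 9 from Barhl1 (FDR from 0.0521 to 0.0829). For Barhl1 these were P6 females 1 and 3, P6 males 3 and 4, P15 females 4 and 6 and P15 males 3, 5 and 6, and for Zic2 they were of all ages. Zic1 was called without P15 female 2, P15 male 1, P6 male 1 or P6 male 6 (FDR from 0.0259 to 0.0416), and Nhlh1 without P15 male 1 (FDR = 0.0169). The 2 rises were called by edgeR, limma-voom and DESeq2 alike at the 2-fold threshold, but none of the 4 falls was called by limma-voom (FDR from 0.0894 to 0.482) or DESeq2 (FDR from 0.0788 to 0.380). The 2 members whose ages did not overlap were Cbln3 and, with that limit, Gabra6, where 13% of all genes did not overlap.

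From P15 to 8 weeks, 6 members were called lower and none higher, where 3.07% of all genes were called lower and 1.20% higher. Of the 6, Nhlh1 and Barhl1 reached 0.5 CPM in 0 and 3 of the 12 8-week mice, passed the filter through the earlier ages and had to differ, which leaves 4 calls, Neurod1, Cbln1, Cbln3 and Zic1. Nhlh1 changed by a log2FC of -7.60 ± 0.79 (FDR = 6.80e-08), a size that depends on the prior count and is no bound, Barhl1 by -5.25 ± 0.73 (FDR = 2.07e-05), Neurod1 by -3.82 ± 0.53 (FDR = 4.49e-05) and Cbln1 by -2.35 ± 0.45 (FDR = 0.0136). Cbln3 (-2.07 ± 0.44, FDR = 0.0470) and Zic1 (-1.93 ± 0.37, FDR = 0.0424) were near the threshold, and lost the call without any 1 of 18 mice for Cbln3 (FDR from 0.0502 to 0.106) and of 14 for Zic1 (FDR from 0.0501 to 0.105), 8 weeks male 4 and P15 female 2 among them in both cases. Atoh1 passed the filter on low counts through the P6 mice only and could not be fitted with P15 and 8 weeks alone, so its test at this step (FDR = 0.0531) carries little and its counts above stand in for it. The test was missed by Gabra6 (-1.83 ± 0.46, FDR = 0.173), Pax6 (-1.50 ± 0.39, FDR = 0.450) and Zic2 (-1.35 ± 0.37, FDR = 0.702). With limma-voom 2 falls were called, Nhlh1 and Neurod1, and with DESeq2 4, Nhlh1, Barhl1, Neurod1 and, with the same limit, Atoh1. Barhl1 and Nhlh1, both with the limit given above, did not overlap between P15 and 8 weeks, where 3.37% of all genes did not overlap.

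Between P6 and 8 weeks, leaving aside Atoh1, Nhlh1, Barhl1 and Gabra6 for the same reason, 5 of the other 6 members were called lower and 1, Cbln3, higher, where 12.4% of all genes were called lower and 11.5% higher. This comparison shares its mice with the other 2. The falls ran from -2.60 ± 0.47 (FDR = 0.000850) for Cbln1 to -5.56 ± 0.58 (FDR = 8.43e-09) for Neurod1. At 8 weeks Nhlh1 had at most 6 counts in any mouse and Barhl1 at most 27. Cbln3 was higher by a log2FC of 3.54 ± 0.55 (FDR = 3.06e-05; 0.0670 with limma-voom) and Gabra6 by 5.84 ± 0.74 (FDR = 4.16e-07), or 7.72 without P6 female 2. The ages did not overlap for Neurod1 nor, with that limit, for Barhl1 and Nhlh1, where 29.6% of all genes did not overlap.

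**Figure D2:**
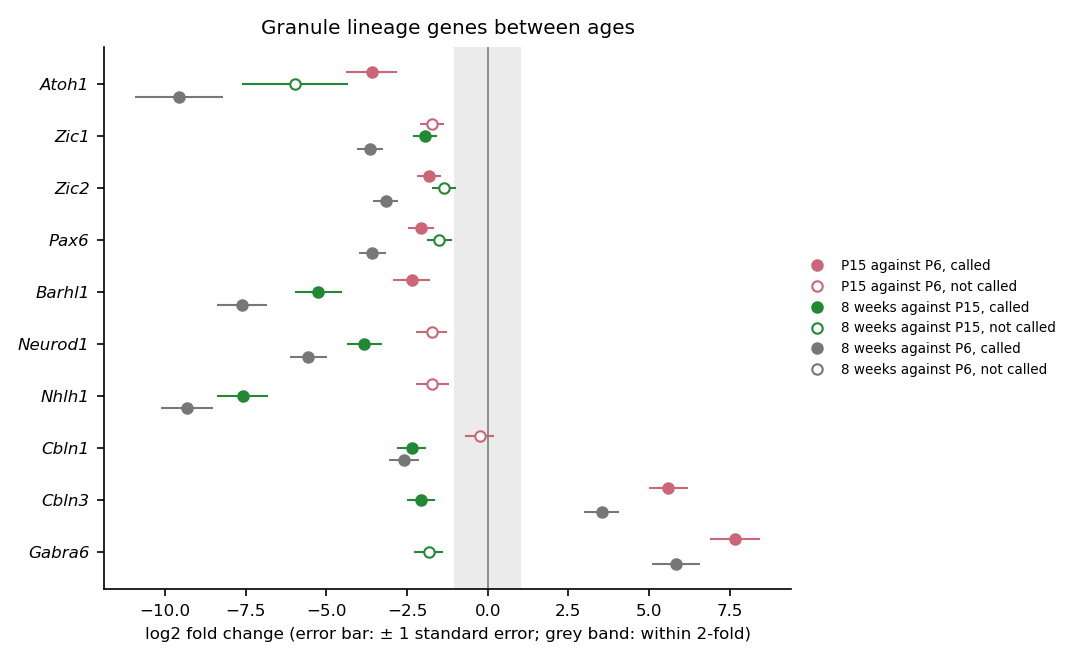
Log2 fold change of each member between ages, with 1 standard error on each side. Filled points passed the 2-fold test at an FDR under 0.05, and the grey band is the range within 2-fold. From P6 to P15 only Cbln3 and Gabra6 lie to the right of the band, and from P15 to 8 weeks all 10 members lie to its left.

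The change between P6 and P15 was also estimated with the mean log2 CPM of the 6 neuronal markers as a covariate, so that mice were compared at the same neuronal marker level. The covariate ran from 4.77 to 6.31 at P6 and from 3.89 to 6.53 at P15, so that the ages overlapped, although Tubb3 among its genes was itself lower at P15. It had 1 slope over all 34 mice, those of 8 weeks (2.82 to 4.93) included. Members correlated with it at P15 (r from 0.914 to 0.986), so the covariate also takes out part of the members' own variation. The same 4 members were lower and the same 2 higher, with the limit given above for Atoh1 and Gabra6, where 5.00% of all genes were called lower and 5.14% higher. Atoh1 was estimated at -3.31 ± 0.64 (FDR = 0.00291), Pax6 at -1.87 ± 0.28 (FDR = 0.00447), Barhl1 at -1.95 ± 0.44 (FDR = 0.0411) and Zic2 at -1.57 ± 0.26 (FDR = 0.0441). Barhl1 and Zic2 were near the threshold, and fewer members were called with some of the alternatives given below. Cbln3 was estimated at 5.95 ± 0.37 (FDR = 1.45e-13) and Gabra6 at 7.97 ± 0.49 (FDR = 7.86e-14), or 9.87 without P6 female 2. Zic1 (-1.52 ± 0.26, FDR = 0.0607), Neurod1 (-1.42 ± 0.24, FDR = 0.104), Nhlh1 (-1.47 ± 0.28, FDR = 0.125) and Cbln1 (0.12 ± 0.27, FDR = 1) were not called.

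No difference between females and males was detected. No member was called between the sexes at P6, P15 or 8 weeks at the 2-fold threshold by edgeR, limma-voom or DESeq2, nor by edgeR without it, and 0 had an unadjusted p under 0.05 in the 2-fold test, where 0.0454% of all genes were called at each age. Estimates of male against female ran from -1.004 ± 0.66 (Cbln1) to 0.10 ± 1.503 (Gabra6) at P6, from -0.999 ± 0.62 (Gabra6) to -0.07 ± 0.60 (Cbln1) at P15 and from -0.60 ± 1.95 (Nhlh1) to -0.06 ± 1.24 (Barhl1) at 8 weeks among members with any count. A test against a 2-fold threshold is not made to call a difference of 2-fold itself. Without the threshold, standard errors this large leave differences of 2-fold between the sexes undetectable for the members at this number of mice. The sex by age interaction called no member (FDR from 0.831 to 0.991, 0 at an unadjusted p under 0.05), where 0.00% of all genes were called.

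Per kilobase of exon, the order of the members' levels changed with age. At P6 the order of the medians was Zic1 (49.95 CPM per kb), Zic2 (39.8), Neurod1 (34.8), Cbln1 (14.6), Barhl1 (13.5), Nhlh1 (13.4), Pax6 (6.32), Atoh1 (1.27), Cbln3 (0.106) and Gabra6 (0.00499). Zic1 was above Zic2 in 10 of 10 P6 mice, but Zic2 was above Neurod1 in only 5, Cbln1 above Barhl1 in 6 and Barhl1 above Nhlh1 in 5, so these neighbours did not differ in order beyond the spread. At P15 Cbln3 (5.84) and Gabra6 (3.84) had moved above Nhlh1 (2.64), Barhl1 (2.06), Pax6 (1.25) and Atoh1 (0.0652), below Zic1 (12.6), Zic2 (10.6), Cbln1 (10.3) and Neurod1 (8.18), with Zic2 above Cbln1 in 6 of 12 mice. At 8 weeks Zic2 (3.83), Zic1 (3.52), Cbln1 (1.71), Gabra6 (1.03) and Cbln3 (0.906) came before Neurod1 (0.679), Pax6 (0.469), Barhl1 (0.0520), Nhlh1 (0.0144) and Atoh1 (0), with Gabra6 above Cbln3 in 6 of 12 mice and Neurod1 above Pax6 in 7.

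Ratios between 2 genes of the same library compare them at whatever amount of neural RNA the library holds, where both have counts. Where Gabra6 was at 0, as in 5 P6 mice, its level was set by the prior count and its ratio follows the other gene, from -11.12 in P6 female 3 to -7.79 in P6 male 1 for Neurod1. They are ratios of CPM, not of CPM per kilobase, so only their changes between ages are read. The log2 ratio of Gabra6 to Neurod1 averaged -9.45 ± 1.24 (SD, n = 10) in P6 mice, -1.15 ± 0.56 (n = 12) in P15 mice and 0.58 ± 0.91 (n = 12) in mice of 8 weeks. From P15 to 8 weeks it rose by 1.73 (adjusted p = 0.000117, permutation test, 2-sided, 15 tests). Its change from P6 is a description, since Gabra6 had at most 7 counts in any P6 mouse and had to differ. The log2 ratio of Cbln3 to Neurod1 went from -6.93 ± 0.89 in P6 mice through 0.32 ± 0.70 in P15 mice to 1.64 ± 0.73 in mice of 8 weeks, and also rose at both steps (by 7.25 and 1.32, adjusted p = 2.14e-05 and 0.000675, permutation test; 2.14e-05 comes from the smallest p the permutations can give, 1e-05). Gabra6 against Rbfox3, a marker of neurons in general, averaged -9.00 ± 1.06 in P6 mice, with the same limit, and -2.25 ± 0.59 in P15 mice. From P15 to 8 weeks that ratio differed by -0.31 (adjusted p = 0.672, permutation test), and by 0.10 without 8 weeks male 4, in which Gabra6 was at 0 counts.

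Neurod1 was also set against genes of forebrain neurons. Against Dlx2, a homeobox factor of forebrain GABAergic neuroblasts, its log2 ratio was 1.03 ± 1.31 at P6, 1.79 ± 0.97 at P15 and 0.22 ± 1.56 at 8 weeks. Among P6 mice, female 5, male 1 and male 6 lay between -0.94 and -0.71 and the other 7 between 1.38 and 2.20. The difference of P15 from P6 was within the spread (0.76, adjusted p = 0.169, permutation test), and 8 weeks differed from P15 by -1.58 (adjusted p = 0.00575, permutation test). Against Neurod6, a bHLH factor of forebrain excitatory neurons, it was 3.001 ± 0.66 at P6, 3.33 ± 0.77 at P15 and 0.62 ± 1.14 at 8 weeks, with a difference of 0.33 (adjusted p = 0.319) at the first step and -2.71 (adjusted p = 3.75e-05) at the second, both by permutation test. No mouse at 8 weeks overlapped the P15 mice for the ratio to Neurod6. Of the 15 differences of ratios tested, 11 had an adjusted p under 0.05, of which 4 set Gabra6 against P6 and had to differ, and 11 also had it with any 1 of the 34 mice left out.

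**Figure D3:**
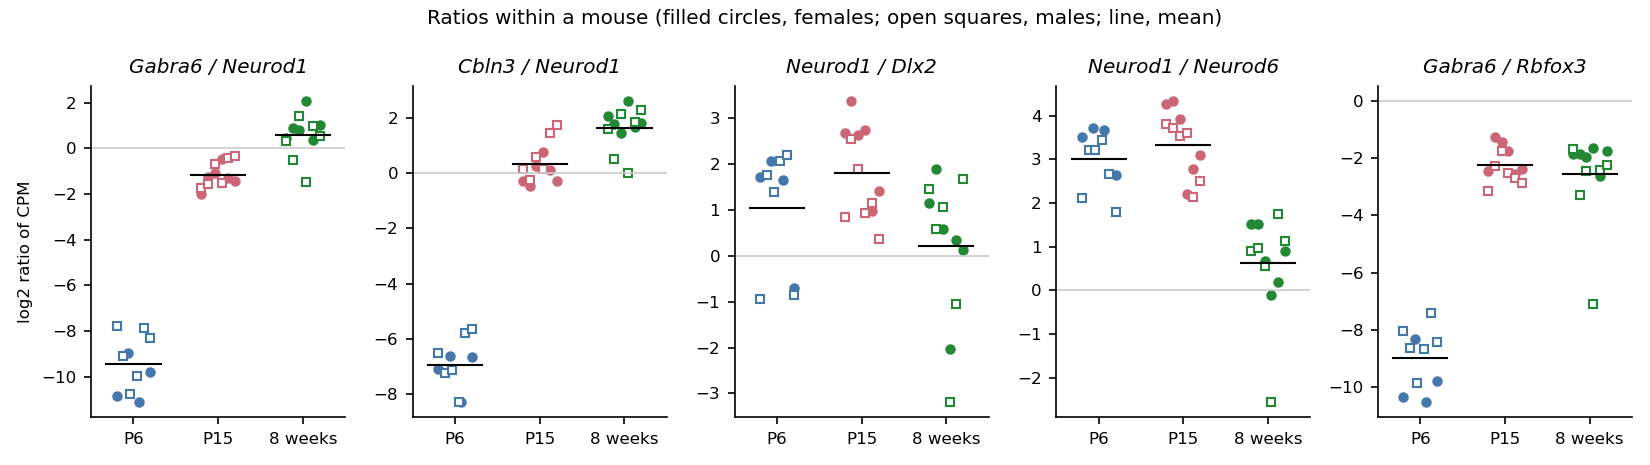
Log2 ratio of CPM of 2 genes within each of 34 mice, by age, for Gabra6 and Cbln3 over Neurod1, Neurod1 over Dlx2 and Neurod6, and Gabra6 over Rbfox3. The line is the mean of the age. The means of the first 2 panels are higher at each later age, those of Gabra6 at P6 resting on at most 7 counts, whereas Neurod1 over Neurod6 drops at 8 weeks, and 8 weeks male 4 is the lowest point of all 5 panels at that age.

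Within an age the members varied together over a wide range. At P6, Zic1 differed 12.01-fold and Barhl1 104-fold between the lowest and the highest mouse. Over the 7 members with more than 3 counts in every P6 mouse, Pearson's r of log2 CPM in the 21 pairs ran from 0.930 to 0.996 (n = 10) and Spearman's rho from 0.758 to 1. At P15, r ran from 0.774 to 0.994 in the 36 pairs of 9 members (n = 12) and rho from 0.692 to 0.993. At 8 weeks the 3 pairs of Zic1, Zic2 and Pax6, the members that could be used there, had r from 0.843 to 0.882 and rho from 0.853 to 0.874. All 60 pairs had an adjusted p under 0.05 by permutation for both measures. Without the 2 mice farthest from the median, r ran from 0.853 to 0.995 at P6, from 0.687 to 0.986 at P15 and from 0.623 to 0.845 at 8 weeks. The low mice were the same ones for most members, P6 males 1 and 6 and P15 males 5 and 6, and the high ones were P6 male 4, P15 female 2 and 8 weeks female 1.

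**Figure D4:**
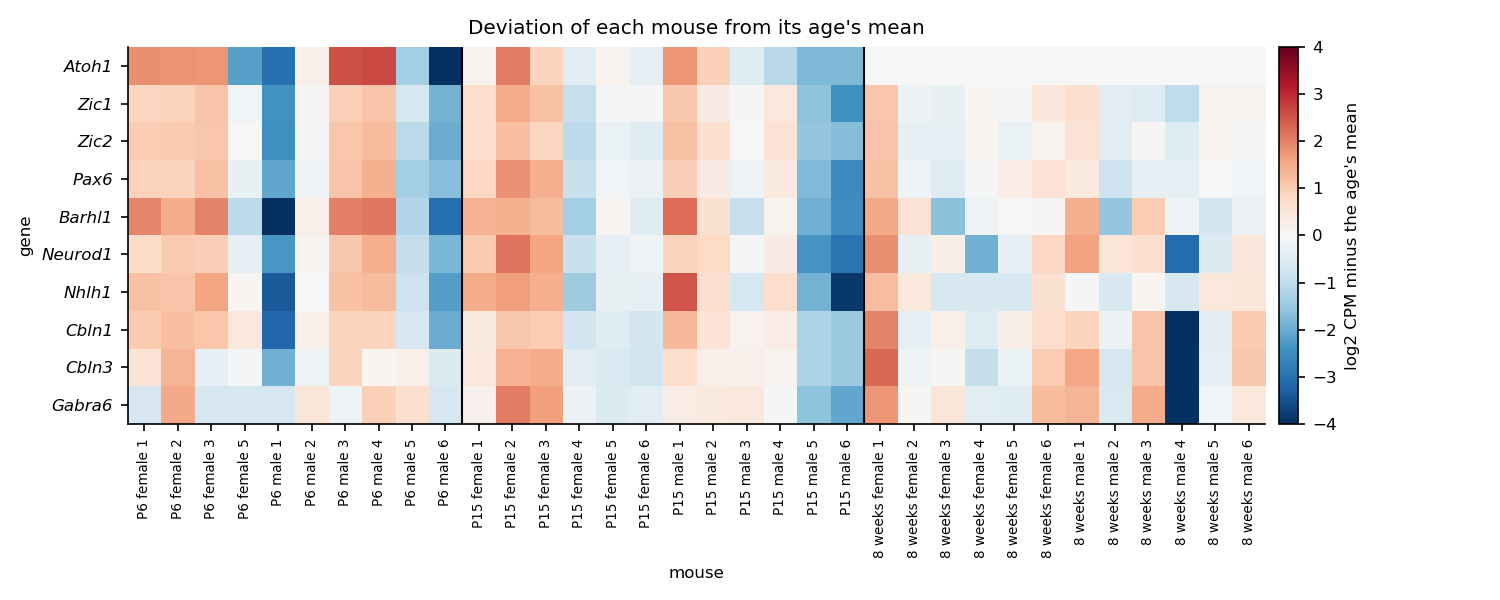
Deviation of each mouse's log2 CPM from the mean of its age, for the 10 members (rows) in 34 mice (columns), with lines between ages. Columns are mostly of 1 colour at P6 and P15, red for the high mice such as P15 female 2 and blue for the low ones such as P6 male 1 and P15 male 6, whereas 8 weeks male 4 is blue for Neurod1, Cbln1, Cbln3 and Gabra6 and pale for Zic2 and Pax6. Atoh1 is uniformly pale at 8 weeks, where it had no counts.

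The members were also set against forebrain genes within each age. At P6, none of the 7 usable members had a relation that passed the test with the mean level of 9 genes of forebrain GABAergic neuroblasts (r from 0.249 to 0.428, adjusted p from 0.333 to 0.572, n = 10, 114 permutation tests in all) or of 8 genes of forebrain excitatory neurons (r from 0.191 to 0.341, adjusted p from 0.455 to 0.666). For the GABAergic list rho ran from 0.358 to 0.576, and r without the 2 mice farthest from the median from 0.311 to 0.636, near the values of the general neuronal list under the same checks given below. P6 male 1 and P6 male 6 were lowest for Neurod1 (log2 CPM of 3.79 and 4.28), and held a GABAergic neuroblast level of 3.88 and 4.29, near the P6 mean of 4.21. P6 male 5, with Neurod1 at 5.18, was lowest for that list (2.46), and P6 female 5, with Neurod1 at 5.81, was highest (5.49). The difference between these correlations and those among the members was not tested.

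At P15, all 9 usable members followed both forebrain lists, with r from 0.776 to 0.919 for GABAergic neuroblasts and from 0.832 to 0.963 for excitatory neurons (adjusted p from 0.000448 to 0.00625 and from 0.000285 to 0.00182, permutation test, n = 12). They also followed the astrocyte list, with r from 0.767 to 0.947 (adjusted p from 0.000285 to 0.00690, permutation test), or from 0.513 to 0.865 without the 2 mice farthest from the median. By rank 8 of the 9 passed, the exception being Gabra6 (rho = 0.601, adjusted p = 0.0801, permutation test). None of the members followed that list at P6 (r from 0.127 to 0.198, adjusted p from 0.658 to 0.754). P15 males 5 and 6 were the lowest mice for the members, the neuronal, the astrocyte and the excitatory neuron lists. Whether the relation differed between P6 and P15 was not tested. With the general neuronal markers, members correlated at P15 (r from 0.914 to 0.986) and at P6 (r from 0.776 to 0.869, adjusted p from 0.00858 to 0.0181, permutation test). At P6 none did so by rank (rho from 0.467 to 0.612, adjusted p from 0.120 to 0.256), and r without the 2 mice farthest from the median ran from 0.422 to 0.729, so the P6 relation rests on those mice.

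With the mean level of a list of microglial markers, P2ry12, Tmem119, Cx3cr1, Siglech and Sall1 among them, every relation was negative, with r from -0.920 to -0.825 in P6 mice, from -0.916 to -0.710 in P15 mice and from -0.828 to -0.774 at 8 weeks, and all had an adjusted p under 0.05 by permutation. CPM are shares of a library, so a rise of one source lowers the others. Markers of dividing cells had no relation with a member that passed the test by Pearson's r at any age (r from -0.476 to 0.504), but Zic1 at 8 weeks passed by rank (rho = 0.692, adjusted p = 0.0323, permutation test). At 8 weeks Zic1, Zic2 and Pax6 followed the astrocyte list (r from 0.8001 to 0.903, adjusted p from 0.000438 to 0.00556, permutation test), while with the neuronal list 1 of the 3, Zic2, passed (adjusted p = 0.0469). With the GABAergic list Zic1 and Zic2 passed (adjusted p = 0.0454 and 0.0209) and with the excitatory list Zic2 (adjusted p = 0.0150), all by permutation test. None of these relations with the neuronal, GABAergic and excitatory lists passed by rank. Without the 2 mice farthest from the median, r was 0.112 to 0.328 with the neuronal list and 0.464 to 0.795 with the astrocyte list.

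**Figure D5:**
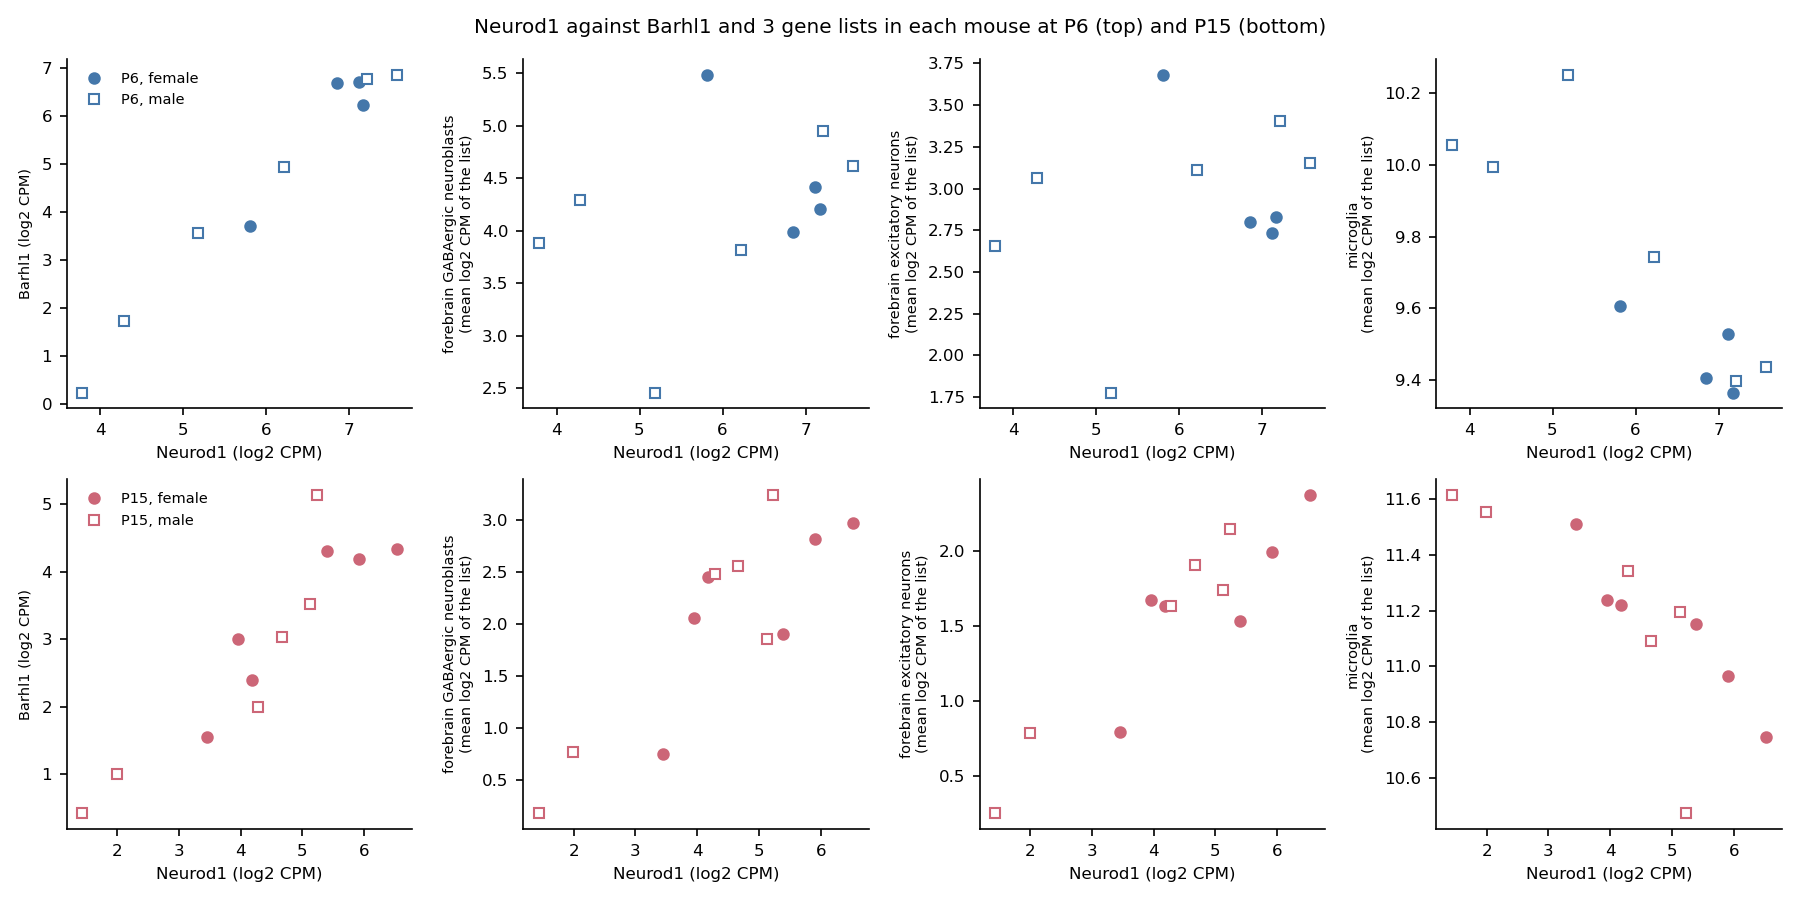
Log2 CPM of Neurod1 in each mouse (horizontal axes) against Barhl1, the mean log2 CPM of 2 forebrain lists and that of the microglial list, at P6 (top, n = 10) and P15 (bottom, n = 12). Filled circles are females and open squares males. Neurod1 and Barhl1 lie on a line at both ages (r = 0.985 and 0.912), the GABAergic neuroblast panel is scattered at P6 (r = 0.343) and rising at P15 (r = 0.852), and the microglial panel falls at both ages.

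At 8 weeks the members did not all go together in single mice. In 8 weeks male 4, Neurod1, Cbln1 and Cbln3 had 3 counts each and Gabra6, Nhlh1 and Atoh1 had 0, whereas Zic1 had 261 counts, Zic2 211 and Pax6 119. Its neuronal marker level (mean log2 CPM of 3.23) was above that of 8 weeks female 4 (2.82). It was the lowest mouse for Zic1 (9.80 CPM) and Zic2 (7.92 CPM, against 8.26 CPM in the next) and within the range of the others for Pax6 (4.47 CPM). In 8 weeks female 1, the highest mouse, Cbln3 had 823 counts, Cbln1 649, Gabra6 272 and Neurod1 195, beside 1570 of Zic1. Meningeal fibroblast markers, which could accompany Zic1 and Zic2, summed to 57.2 to 202 CPM in P6 mice, to 56.7 to 224 CPM in P15 mice and to 15.1 to 68.2 CPM in mice of 8 weeks, and were detected in every mouse. Their part in the Zic1 and Zic2 levels was not tested.

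P6 female 6, the library set aside, differed among the members too. With all 35 mice scaled together it held the highest P6 level of Zic1 (473 CPM), Zic2 (186 CPM), Cbln1 (123 CPM), Cbln3 (131 counts, against 3 to 44 in the other P6 mice) and Gabra6 (32 counts, against 0 to 7). For Neurod1 (139 CPM), Pax6 (78.8 CPM), Barhl1 (45.4 CPM) and Nhlh1 (34.6 CPM) it stood in the middle, with 4 or 5 of the other 10 mice higher. Its Atoh1 (33 counts, 0.794 CPM) was exceeded by 6 of the 10. The same library held 1528 CPM of neuronal markers, 2160 CPM of astrocyte and 2035 CPM of oligodendrocyte lineage markers, against at most 926, 1167 and 787 CPM in the other P6 mice, and 146 CPM of Purkinje cell markers against at most 59.7. Forebrain GABAergic neuroblast genes, at 229 CPM, were at the middle of the P6 range (66.4 to 560 CPM).

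Other genes of the granule lineage were read from a list of 28, all of which were tested. From P6 to P15, 7 were called lower and 3 higher, with a median log2FC of -1.46 against -0.01 over all genes, where 4.85% of all genes were lower and 4.87% higher. The 3 that rose are used by mature granule neurons, but not by them alone. They were Grin2c, an NMDA receptor subunit (4.91 ± 0.42, FDR = 4.98e-10), Gabrd, the delta subunit that pairs with alpha6 in GABA-A receptors (3.88 ± 0.35, FDR = 5.96e-09), and Slc17a7, the vesicular glutamate transporter VGLUT1 (2.44 ± 0.33, FDR = 0.000146). The 7 that fell were En1, Mycn, Nhlh2, Tlx3, Zic5, Nfib and Sema6a. Among them En1, a homeobox factor of the midbrain-hindbrain region, changed by -2.93 ± 0.52 (FDR = 0.00117), and Mycn, which keeps progenitors dividing, by -2.83 ± 0.31 (FDR = 3.35e-06). Grin2c and Slc17a7 are used by other cells as well. Grin2c had medians of 2.48, 49.4 and 64.5 CPM at P6, P15 and 8 weeks, whereas the medians of Gabra6 and Cbln3 were lower at 8 weeks than at P15.

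From P15 to 8 weeks, 9 of the 28 were called lower and 0 higher (median log2FC -1.28, against 0.02 over all genes), where 3.07% of all genes were lower. Of the 9, 6 reached 0.5 CPM in 5 or more 8-week mice, and Nhlh2, Barhl2 and Tlx3 passed the filter only through earlier ages and had to differ. Nhlh2, the paralogue of Nhlh1, had medians of 5.01 CPM at P15 and 0.117 CPM at 8 weeks. Between P6 and 8 weeks 18 were lower and 2, Grin2c and Gabrd, higher (median -2.49, against 0.04 over all genes), where 12.4% of all genes were lower and 11.5% higher, and 14 of the 18 reached that level in 5 or more 8-week mice. The list was chosen with results of these data known, and its counts are descriptions.

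Some markers of other cerebellar cells were present too, whereas others were near the floor. On the Purkinje cell list Skor2 and Shh had P6 medians of 0.111 and 0.120 CPM. Lmx1a, listed for unipolar brush cells, had a P6 median of 0.0812 CPM. Of 3 genes of Bergmann glia, the radial glia of the cerebellum, Gdf10 had medians of 16.5, 77.1 and 41.3 CPM at P6, P15 and 8 weeks, Sept4 of 44.01, 77.2 and 70.6 CPM, and Hopx of 10.5, 17.6 and 19.9 CPM. Ptf1a and Pax2, genes of cerebellar GABAergic progenitors and interneuron precursors, had medians of 1.38 and 16.1 CPM at P6. At P15 Ptf1a had at most 1 count in any mouse, and Pax2 from 0 to 45 counts. Lhx5, found in young Purkinje cells and in other young neurons, had 6 to 767 counts at P6 and 2 to 29 at P15. These 3 genes are given by their levels, since they passed the filter on low counts mainly through the P6 mice. Pcp2, a protein of mature Purkinje cells, rose from a median of 0.741 to 4.62 CPM (2.53 ± 0.48, FDR = 0.00350). Of 9 Purkinje genes listed 7 were tested, with 1, Lhx5, lower and 2 higher at P15, and of 7 hindbrain Hox genes 2 were tested, with none called, where 4.85% of all genes were lower and 4.87% higher.

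Forebrain neuroblast genes fell as well. From P6 to P15, 7 of 9 GABAergic neuroblast genes and 3 of 8 excitatory neuron genes were called lower and none higher (medians of -2.34 and -1.22), where 4.85% of all genes were lower, Dlx2 by -2.44 ± 0.38 (FDR = 0.000873) and Neurod6 by -2.14 ± 0.33 (FDR = 0.00201). From P15 to 8 weeks 5 of 9 and 0 of 8 were called lower, where 3.07% of all genes were, and of the 5 Dlx5 passed the filter only through earlier ages. Of the 6 general neuronal markers 1 was lower at P15 and 2 at 8 weeks against P15.

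Genes outside the members whose deviations from the group means were most like the mean deviation of the members, over 34 mice and 17612 genes, were D430041D05Rik (r = 0.965), Sv2b (0.962), Reln (0.958), Gm29521 (0.955), Kcnj3 (0.954), Gm2694 (0.953), En2 (0.948), Bhlhe22 (0.946) and Mab21l1 (0.944). Reln, the secreted glycoprotein reelin, and En2, a homeobox factor of the cerebellum, are on the list of other granule lineage genes. Gm2694 overlaps Cbln1 on the opposite strand, without shared exonic bases. Among the members themselves, each of which is part of the mean, r ran from 0.957 (Zic1) to 0.739 (Gabra6). Of the 17612 genes, members included, 669 had a higher r than Gabra6, 381 than Cbln3 and 367 than Atoh1. These correlations describe likeness in these mice, and the points share libraries and their depth.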

How the data were processed

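The authors digested whole brains, took CD45+ve cells by immunopanning, made directional libraries from total RNA and sequenced paired ends. Reads were aligned to mm10 with STAR and assigned to genes with reverse-stranded featureCounts (the annotation release is not given in the sources used here). The authors deposited raw counts for 55401 genes, with no normalisation. Of these Ensembl identifiers 55141 matched a gene name in GENCODE M21, and the other 260 were kept by identifier. Here, genes reaching 0.5 CPM in 5 or more mice entered a fit in edgeR 4.0.16 (R 4.3.3), with TMM scaling, 1 mean per age and sex, a quasi-likelihood fit and glmTreat at 2-fold (FDR under 0.05, Benjamini-Hochberg over 17612 genes). Log2 CPM used a prior count of 2. Ratios and correlations were tested with 100000 permutations, 2-sided. Alternatives were limma-voom (limma 3.58.1), DESeq2 1.42.0, other filters and scalings, all 35 mice, a replicate block and leaving out mice. The scripts were tested on simulated data. The depth of 23316107 to 38965078 counts sets the floor of 0.077 to 0.129 CPM. Named genes were the members, genes of the lists and the 10 genes most like the members, of which 9 are given. Some items are not reported here. The members and lists were chosen with earlier results of these data known.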

Additional observations from a re-analysis of the deposited data

Results flagged for a closer look

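In 58 groups of 4 to 6 mice of 1 age and sex, 9 members' values stood apart by Dixon's test. Its rate of about 5% by chance holds for independent groups. These groups share mice and the members vary together, so the 9 are a description. 4 of them concern the high mice already named. In 8 weeks female 1, Zic2 was at 24.8 CPM (next female 12.2), Cbln1 at 17.8 CPM (7.17) and Cbln3 at 22.6 CPM (9.28). In P15 female 2, Atoh1 was at 0.839 CPM, against 0.332 CPM in the next female.

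In P15 male 1, Barhl1 was at 35.04 CPM (next male 11.4) and Nhlh1 at 31.3 CPM (8.84). In P6 female 5, Atoh1 was at 0.206 CPM, against 4.03 CPM in the nearest female, and Zic2 at 74.7 CPM against 154 CPM, beside the highest level of forebrain GABAergic neuroblast genes at P6. Gabra6 in P6 female 2 was at 0.225 CPM (7 counts) where the other 3 females of the group had 0. With the others at 0, any count would have stood apart.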

How the results depend on the processing

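With P15 against P6, 6 members were called; 1 of 3 testable was called with at least 10 counts in every mouse, 2 with limma-voom and 2 with DESeq2. With 8 weeks against P15, 6 were called; the numbers were 0, 2 with limma-voom and 10 with no fold threshold, where 4213 of all 17612 genes were lower and 4221 higher. With 8 weeks against P6, 10 were called, where 2176 of all genes were lower and 2024 higher, and 3 with at least 10 counts in every mouse, where 3 could be tested. Of the 6, 6 and 10 calls, 4, 4 and 6 were of members that reached the filter at the age where they were low. At an equal neuronal marker level 6 were called, and 1 with that filter. Without 1 mouse, the counts ran from 4 to 8 (P15 against P6), from 4 to 7 (8 weeks against P15), at 10 (8 weeks against P6) and from 4 to 8 (equal neuronal level, P6 females left out). The 60 pairs and 11 ratios were called in each of these. The log2 ratio of Gabra6 to Rbfox3 between P15 and 8 weeks ran from -0.39 to 0.10 with 1 mouse left out, the latter, of opposite sign, without 8 weeks male 4. Leaving out each of the 34 mice was chosen after seeing the data. Beyond the smaller number of genes tested under the count filter, the cause of these shifts was not tested. Values under about 0.1 CPM are limited by depth.

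With the replicate number as a block, 6, 6 and 10 members were called in the 3 age comparisons, 4 at an equal neuronal level and 0 between sexes and for sex by age. From P15 to 8 weeks Atoh1 was gained and Zic1 lost. The numbers did not pair the mice: over 80 same-number pairs the correlation of deviations ran from -0.536 to 0.691 (median 0.033), and 2 of 34 mice correlated best with their own number.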
